A study of Homo sapiens with 6 samples.

Results

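The 8 mRNAs described here encode the subunits of TRiC (also called CCT), the chaperonin of the eukaryotic cytosol: TCP1, CCT2, CCT3, CCT4, CCT5, CCT6A, CCT7 and CCT8. They were taken by gene symbol from a table of read counts with 60676 Ensembl gene IDs, all 8 were found, and all 8 passed the filter on low counts that left 15546 genes for testing. The counts come from RNA recovered in pulldowns on glutathione resin. The lysate was made from HEK 293, a cell line derived from human embryonic kidney, kept here in suspension culture. The bait was the GST-Ferry complex in 3 libraries and GST, the affinity tag alone, in the other 3, and all 6 pulldowns shared the GST tag, the resin and the cell line. FERRY is a complex of 5 proteins that binds the early endosomal GTPase RAB5, and the comparison asks which RNAs associate with it beyond the background on the tagged resin. No library of the input lysate was analysed here, so each value compares baits and not bound with unbound RNA, and a higher share of one mRNA cannot be told apart from a lower share of others.

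TRiC is built from a pair of stacked rings, each holding one copy of every subunit in a fixed order, which runs TCP1, CCT3, CCT6A, CCT8, CCT7, CCT5, CCT2, CCT4 and back to TCP1. The subunits descend from a common ancestor and each carries its own substrate-binding face, while their nucleotide-binding sites share short motifs. The complex uses ATP to close a lid over unfolded proteins and is known for folding actin, tubulin and many proteins with WD40 repeats. Prefoldin delivers newly made chains to it, and phosducin-like proteins act as its cochaperones.

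The stretch of coding sequence around the conserved nucleotide-binding motif shows how alike and how distinct the 8 mRNAs are, which bears on whether reads could be assigned to single subunits. Each line gives the bases of the GENCODE release 29 transcript from 5′ to 3′ on the sense strand, and the capitals mark the 4 codons for glycine, aspartate, glycine and threonine.
TCP1: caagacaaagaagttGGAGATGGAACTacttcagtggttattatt
CCT3: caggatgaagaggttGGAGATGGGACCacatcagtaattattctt
CCT6A: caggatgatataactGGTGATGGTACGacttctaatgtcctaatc
CCT8: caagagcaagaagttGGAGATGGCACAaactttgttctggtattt
CCT7: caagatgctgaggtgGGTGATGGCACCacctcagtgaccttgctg
CCT5: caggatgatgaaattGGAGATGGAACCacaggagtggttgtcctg
CCT2: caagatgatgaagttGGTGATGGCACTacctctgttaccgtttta
CCT4: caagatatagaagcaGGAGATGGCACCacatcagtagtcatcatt
The motif lies in exon 3 of TCP1, CCT5 and CCT6A, in exon 4 of CCT4, CCT7 and CCT8, and in exon 5 of CCT2 and CCT3. In CCT5 it spans chr5:10254814-10254825 on the plus strand of GRCh38. Over the whole coding sequence the identity of bases between pairs of subunits ran from 56.2% (CCT7 and CCT8) to 63.4% (CCT2 and CCT4), counted over aligned bases, and no subunit transcript shared a run of 50 bases with that of another subunit.

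The genes lie apart from each other on GRCh38, as GENCODE 29 places them. TCP1 spans chr6:159778498-159789749 on the minus strand, CCT3 chr1:156308968-156367873 (minus), CCT6A chr7:56051630-56063989 (plus) and CCT8 chr21:29055805-29073797 (minus). CCT7 spans chr2:73233420-73253021 (plus), CCT5 chr5:10249921-10266412 (plus), CCT2 chr12:69585334-69601570 (plus) and CCT4 chr2:61868089-61888804 (minus). The coding sequences were of nearly equal length, from 1596 bases (CCT6A) to 1671 bases (TCP1) including the stop codon, spread over transcripts of 11 to 16 exons. The 3′ untranslated regions of the transcripts used varied far more, from 143 bases in CCT7 and 151 in CCT8 to 904 in CCT6A and 1629 in CCT5. GC content was 51.2% in CCT3 and 51.8% in CCT7, against 43.1% to 44.7% in the other 6.

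Library totals were 6532665, 2671831 and 2454538 counts in GST-Ferry 1, 2 and 3, and 9388865, 10466520 and 7390346 counts in GST 1, 2 and 3. A pair of libraries stood apart from their groups: on principal component 1, which held 43.9% of variance, GST-Ferry 1 lay at 5.78 against 34.2 and 41 in GST-Ferry 2 and 3, and GST 3 lay at -56.4 against -11.2 and -13.4 in GST 1 and 2. Results are therefore also given without this pair. The line's markers were present, with VIM at 1117 ± 207 CPM with GST-Ferry and 716 ± 111 CPM with GST, and markers of liver, red cells, leukocytes, fibroblasts and macrophages never exceeded 1.59 CPM in a library. All 5 line markers passed the filter on low counts. KRT18 among them was itself enriched (92.4 ± 12.3 CPM with GST-Ferry and 40.6 ± 8.37 CPM with GST, edgeR adjusted p = 0.0427).

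All 8 TRiC subunit mRNAs had a higher mean with GST-Ferry than with GST, but 1 of them, CCT5, passed the test. CCT5 rose 2.32-fold, to 982 ± 214 CPM with GST-Ferry against 423 ± 38.9 CPM with GST (mean ± SD, n = 3 each). CCT7 came next with a 1.58-fold difference that did not pass, and the other 6 lay between 1.24-fold (CCT3) and 1.33-fold (TCP1). Values are normalised read counts, that is counts relative to the library total after TMM scaling (CPM), and a gene is called enriched where edgeR's quasi-likelihood test gave a Benjamini-Hochberg adjusted p under 0.05 over all 15546 genes. Of all tested genes 0.624% were called, 0.592% as enriched and 0.0322% as depleted, and of the 8 subunits 1 was enriched and 0 were depleted. At an unadjusted p under 0.05 no subunit was lower either, against 8.05% of all tested genes. DESeq2 called no subunit depleted, and 140 of all tested genes. With limma-voom 0 of all tested genes were called depleted, so it could not set the subunits apart from the rest. The median log2 fold change of the 8 was 0.38, against -0.03 over all tested genes, and 47.8% of all tested genes had a fold change above 0.

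**Figure D1:**
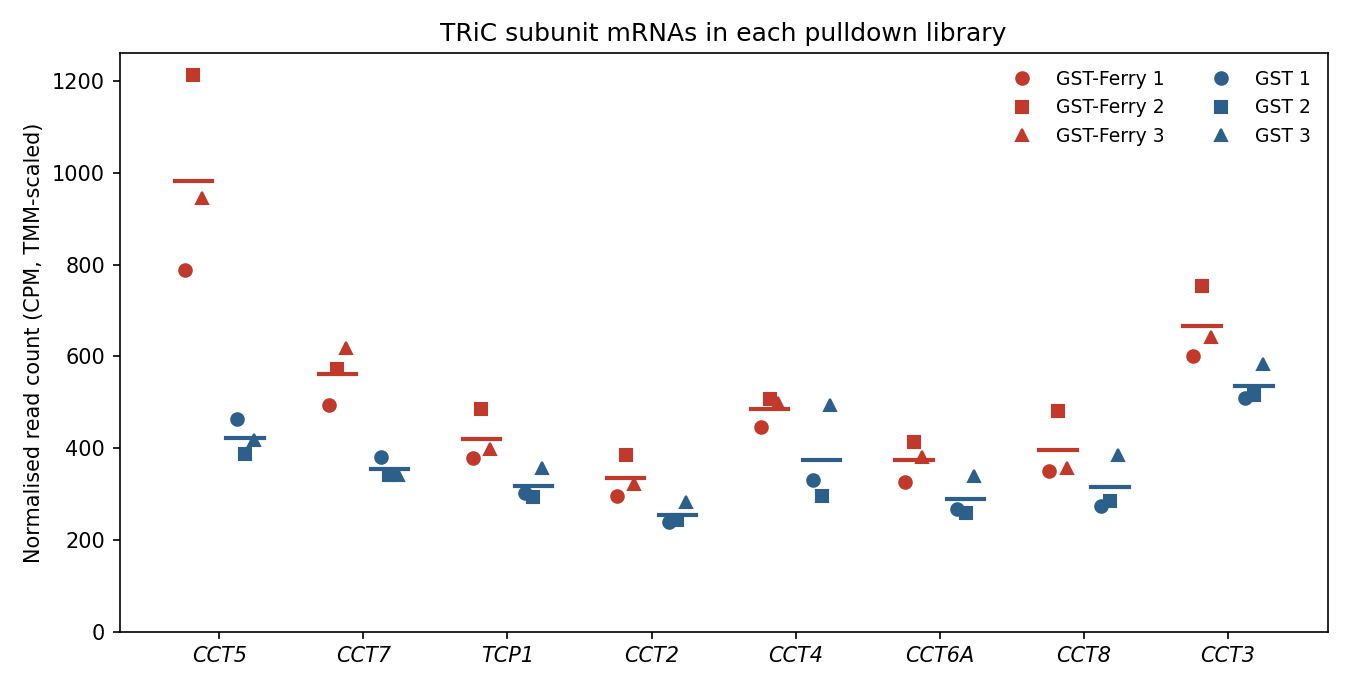
Normalised read count (CPM, TMM-scaled, vertical axis from 0) of each TRiC subunit mRNA in the 3 GST-Ferry libraries (red, left of each pair) and the 3 GST libraries (blue, right); symbols give the library and bars the mean. CCT5 lies between 789 and 1212 CPM with GST-Ferry, above all its GST values of 387 to 465 CPM, while the groups of CCT4, CCT6A and CCT8 overlap.

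CCT5 encodes the epsilon subunit, which together with CCT4 is known to form rings of a single subunit type when the human protein is made in bacteria. It had 789, 1212 and 944 CPM in GST-Ferry 1, 2 and 3, and 465, 387 and 418 CPM in GST 1, 2 and 3. Every GST-Ferry library lay above every GST library, and the spread among the GST-Ferry libraries was wider than among the GST libraries. The log2 fold change was 1.21 ± 0.22 (SE; edgeR adjusted p = 0.042), and 70 of the 15546 tested genes, CCT5 included, had a fold change at least as large. The call lay close to the threshold. The edgeR adjusted p was 0.0518 with RLE size factors, 0.067 with library sizes alone, 0.425 without GST-Ferry 2, 0.41 without GST-Ferry 3 and 0.113 without GST 2. The adjusted p of limma-voom was 0.0573. In these same refits the log2 fold change stayed between 0.99 and 1.22.

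CCT7 encodes the eta subunit, the neighbour of CCT5 in the ring. It had 495, 572 and 619 CPM in GST-Ferry 1, 2 and 3, against 381, 343 and 341 CPM in GST 1, 2 and 3. The groups did not overlap and both were tight, with means of 562 ± 62.6 CPM with GST-Ferry and 355 ± 22.6 CPM with GST. The log2 fold change was 0.66 ± 0.19 (SE) with a 95% interval from 0.25 to 1.08 for this gene alone, and the edgeR adjusted p was 0.106. DESeq2 called it enriched (DESeq2 adjusted p = 0.0358), as it did 2.84% of all tested genes.

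TCP1, the alpha subunit and the first of the family to be described, had 379, 485 and 399 CPM with GST-Ferry and 303, 293 and 357 CPM with GST. CCT2, the beta subunit, which has also been described as a receptor for aggregates in autophagy, had 296, 386 and 322 CPM with GST-Ferry and 239.9, 243 and 284 CPM with GST. CCT3, the gamma subunit, had 600.3, 753 and 643 CPM with GST-Ferry and 509, 515 and 584 CPM with GST. In these 3 genes the lowest GST-Ferry library, GST-Ferry 1 each time, lay just above the highest GST library, GST 3 each time. Their log2 fold changes were 0.41 ± 0.20 (TCP1), 0.39 ± 0.19 (CCT2) and 0.31 ± 0.19 (CCT3, SE), and none passed (edgeR adjusted p = 0.275, 0.293 and 0.398).

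CCT4, the delta subunit, had 447, 508 and 499.7 CPM with GST-Ferry and 332, 296 and 494 CPM with GST. GST 3 reached the level of the GST-Ferry libraries, which made this the widest of the 8 GST groups (374 ± 106 CPM, against 485 ± 33 CPM with GST-Ferry). CCT6A, the zeta subunit, had 326, 414 and 382 CPM with GST-Ferry and 269, 259 and 339 CPM with GST. CCT8, the theta subunit, which promotes assembly of the complex in human pluripotent stem cells, had 351, 482 and 357 CPM with GST-Ferry and 274, 286 and 384 CPM with GST. In all 3 genes GST 3 overlapped the GST-Ferry group. Their log2 fold changes were 0.37 ± 0.22 (CCT4), 0.37 ± 0.20 (CCT6A) and 0.33 ± 0.22 (CCT8, SE), with edgeR adjusted p from 0.327 to 0.416. Without GST 3 CCT4 had a log2 fold change of 0.60 and was called enriched (edgeR adjusted p = 0.048), as were 4.45% of all tested genes in that fit.

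**Figure D2:**
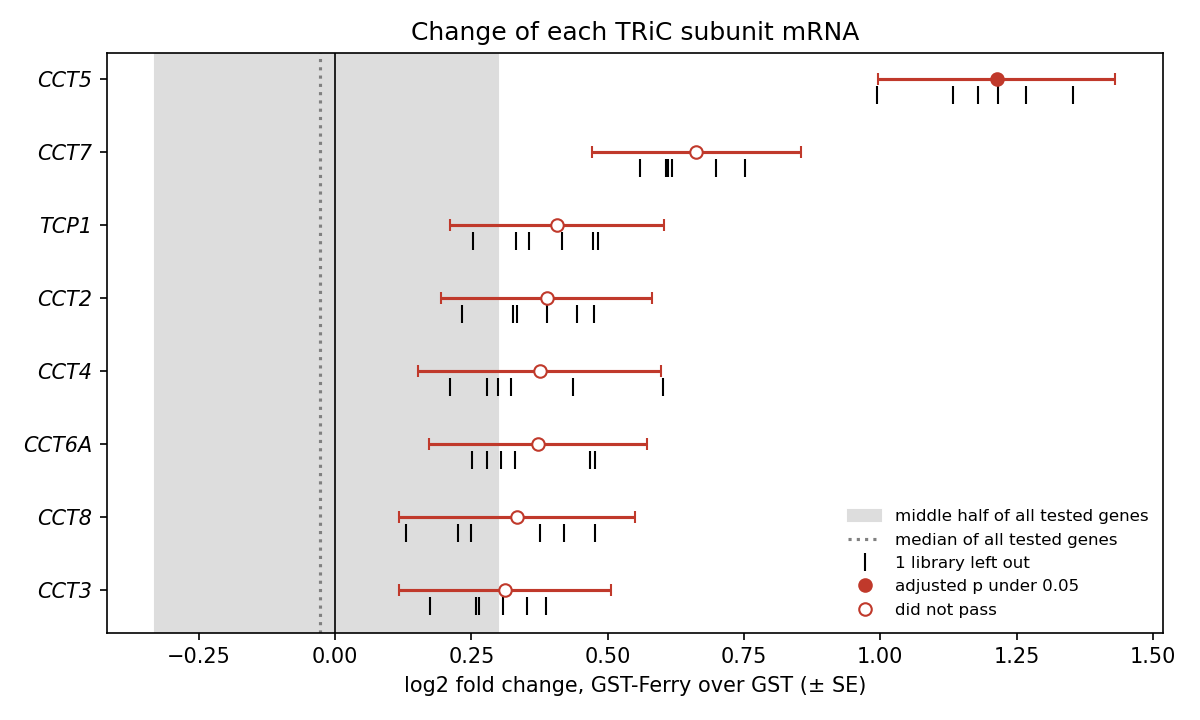
Log2 fold change of GST-Ferry over GST for each TRiC subunit mRNA (circles, bars are the SE of the edgeR fit; filled where the adjusted p was under 0.05), with the value after leaving out each library in turn as ticks below. The grey band runs from the lower to the upper quartile of all tested genes (-0.33 to 0.30); CCT5 and CCT7 and all their ticks lie to its right, and every tick of the 8 genes lies above 0.

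In 5 of the 8 subunits every GST-Ferry library lay above every GST library, and 14.9% of all tested genes did so. In 2 of the 8, CCT5 and CCT7, the unadjusted p was under 0.05, against 11.3% of all tested genes with a higher value. All 8 fold changes stayed above 0 under the 3 scalings, without the filter, with DESeq2 and limma-voom, and without any 1 library. Their median was lowest, 0.25, without GST-Ferry 2. There the log2 fold change was 0.13 in CCT8, 0.17 in CCT3, 0.23 in CCT2, and 0.25 in both TCP1 and CCT6A. Without GST 3 and GST-Ferry 1 together, 7 of the 8 were called enriched, all but CCT3 (edgeR adjusted p = 0.0713), with a median log2 fold change of 0.59. In that fit of 2 against 2 libraries 11.5% of all tested genes were called enriched, and the median over all genes was -0.01. The pair was picked by its place on principal component 1 in these same data. For every subunit GST-Ferry 1 was the lowest GST-Ferry library, and for most GST 3 was the highest GST library. Leaving both out therefore raised the fold changes of most subunits by construction. The lowest count of a subunit in a library was 740, for CCT2 in GST-Ferry 3, with a counting error of 3.68%. The gaps between groups were narrow in CCT3 (GST-Ferry 1 at 600.3 CPM, GST 3 at 584 CPM) and CCT2 (GST-Ferry 1 at 296 CPM, GST 3 at 284 CPM). In those libraries the counting error of CCT2 was 2.22% (GST-Ferry 1) and 2.28% (GST 3), and that of CCT3, with more counts, was smaller. The gaps were not much wider than these errors, so for these genes the absence of overlap was not clear of counting error.

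Most subunits were high and low in the same libraries. Averaged over the 8 genes, log2 CPM minus the mean of the GST libraries was 0.33, 0.70 and 0.50 in GST-Ferry 1, 2 and 3, and -0.05, -0.12 and 0.17 in GST 1, 2 and 3. GST-Ferry 2 was the highest library for 7 of the 8 and GST-Ferry 3 for CCT7. Among the GST libraries GST 3 was the highest for 6 of the 8, while CCT5 and CCT7 were highest in GST 1. The mRNA of PPP1R21, a subunit of the bait, had 798, 18289.5 and 37618 CPM in GST-Ferry 1, 2 and 3 and 39.4, 44.6 and 40.8 CPM in GST 1, 2 and 3. Its order across the GST-Ferry libraries was that of CCT7, and TBCK, C12orf4 and GATD1, also bait subunits, had the same order. The mRNA of CRYZL1, the remaining bait subunit, had 48, 77.6 and 64.4 CPM in GST-Ferry 1, 2 and 3, the order of the other 7 TRiC subunits, and neither CRYZL1 nor GATD1 was called (log2 fold change -0.50 and 0.12, edgeR adjusted p = 0.248 and 0.808). PPP1R21, C12orf4 and TBCK were called enriched and held ranks 1, 2 and 3 by fold change (log2 fold change 8.83, 6.73 and 5.30, edgeR adjusted p = 0.0111 each). With the bait subunit genes left out of the fit the median log2 fold change of the 8 TRiC subunits was 0.38 and that of CCT5 1.21. Any other part of the bait mRNAs in these values was not tested.

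**Figure D3:**
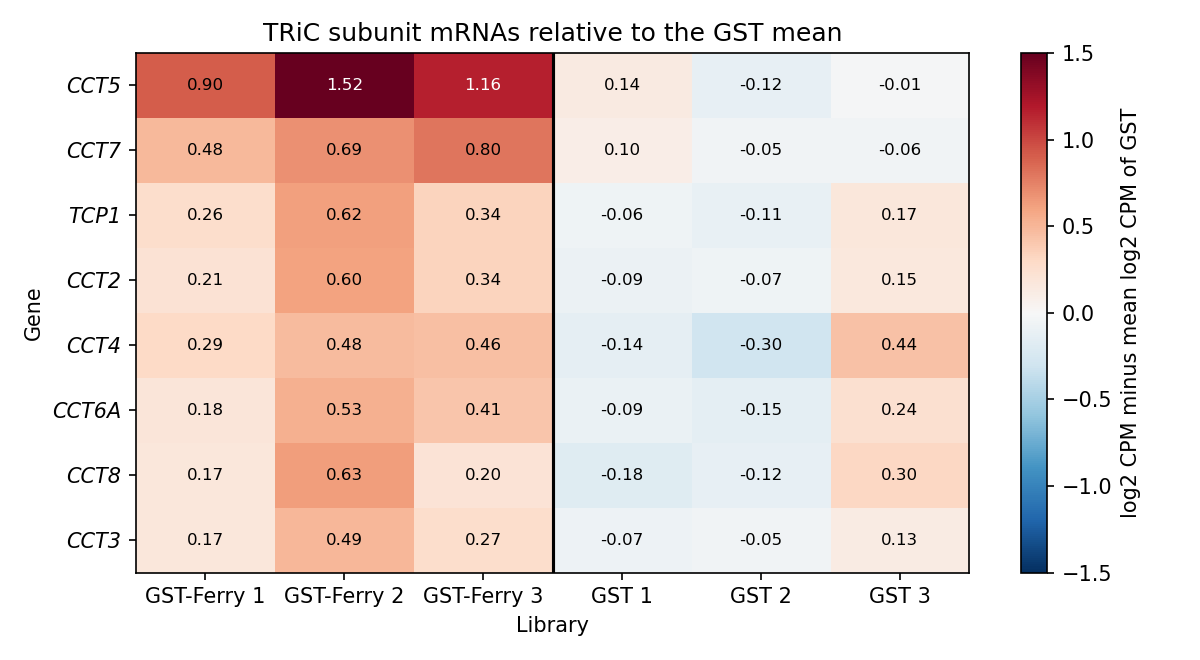
Log2 CPM of each TRiC subunit mRNA (rows) in each library (columns, GST-Ferry left of the line and GST right) minus the mean log2 CPM of GST, as colour and number. The CCT5 row reaches 1.52 in GST-Ferry 2 and the CCT7 row 0.80 in GST-Ferry 3, and the GST 3 column is above 0 in the 6 other rows.

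Within a library the make-up of the TRiC counts can be compared without any scaling between libraries. CCT5 took 21.4%, 25.2% and 22.7% of the counts of the 8 subunits in GST-Ferry 1, 2 and 3, against 16.8%, 14.8% and 13.1% in GST 1, 2 and 3. It was the most counted subunit in every GST-Ferry library, while CCT3 was the most counted in every GST library. The difference for CCT5 was 8.23 percentage points (23.1% ± 1.92 with GST-Ferry and 14.9% ± 1.85 with GST, SD), without overlap. The two-sided exact permutation test gave p = 0.1, the smallest that 3 against 3 libraries allow, and 0.16 after Benjamini-Hochberg adjustment over the 8 subunits, so no share could pass. Expressed as a ratio, CCT5 had 27.3, 33.7 and 29.3 counts per 100 counts of the other 7 in GST-Ferry 1, 2 and 3, and 20.1, 17.3 and 15 in GST 1, 2 and 3.

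A higher share of CCT5 lowers the other shares by construction. CCT3 took 15.8% ± 0.45 with GST-Ferry and 18.8% ± 0.775 with GST, and TCP1, CCT2 and CCT6A were also lower without overlap, with differences of -1.10, -1.01 and -1.18 percentage points. When shares were taken among the 7 subunits other than CCT5, a calculation chosen after seeing the data, the difference in TCP1 was -0.0346 percentage points (SD 0.553 with GST-Ferry and 0.173 with GST). CCT7 had 17.4% ± 1.68 with GST-Ferry and 14.7% ± 2.2 with GST (exact permutation p = 0.2, adjusted 0.7 over the 7). CCT3 was the only one of the 7 without overlap, at 20.5% ± 0.509 with GST-Ferry and 22% ± 1.03 with GST (exact permutation p = 0.1, adjusted 0.7). Its groups nearly met, with 20.91% in GST-Ferry 2 and 20.98% in GST 3, so the absence of overlap was not clear of counting error.

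**Figure D4:**
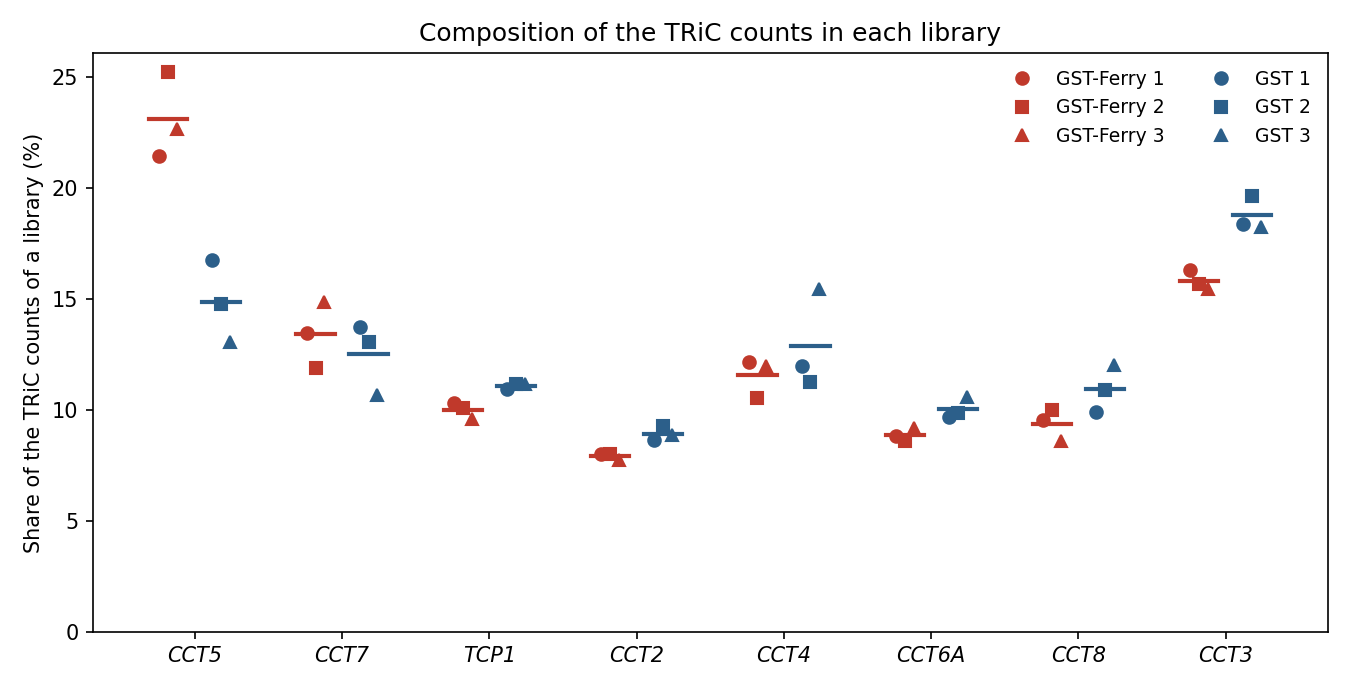
Share of each subunit in the summed counts of the 8 TRiC subunits (percent, vertical axis from 0) in the 3 GST-Ferry libraries (red, left of each pair) and the 3 GST libraries (blue, right); symbols give the library and bars the mean. CCT5 lies at 21.4% to 25.2% with GST-Ferry and 13.1% to 16.8% with GST.

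Summed over the 8 subunits, TRiC mRNAs made up 0.385%, 0.453% and 0.39% of all counts in GST-Ferry 1, 2 and 3, against 0.304%, 0.275% and 0.294% in GST 1, 2 and 3. The sum was 4221 ± 567 CPM with GST-Ferry and 2865 ± 301 CPM with GST, a ratio of 1.47. Without CCT5 the sum was 3239 ± 354 CPM with GST-Ferry and 2442 ± 298 CPM with GST, a ratio of 1.33. No test was made of these sums.

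Levels of different genes can be compared per length, here as CPM per kilobase of the transcript used. With GST-Ferry the order was CCT3 (309.5 ± 36.6), CCT7 (293 ± 32.7), CCT5 (267 ± 58.3), CCT8 (198 ± 36.7), CCT4 (192 ± 13.1), TCP1 (169 ± 22.6), CCT2 (164 ± 22.8) and CCT6A (138 ± 16.5 CPM per kilobase), and the values of each pair of neighbours in this order overlapped between libraries. With GST it was CCT3 (249 ± 19.3), CCT7 (185 ± 11.8), CCT8 (157 ± 30.2), CCT4 (148 ± 42), TCP1 (127 ± 13.7), CCT2 (125 ± 11.9), CCT5 (115 ± 10.6) and CCT6A (106 ± 16.2 CPM per kilobase). There CCT3 lay above CCT7 in every library, and all other neighbours overlapped. CCT5 thus held rank 3 with GST-Ferry and rank 7 with GST. The order depends on the length assumed. Per kilobase of coding sequence CCT5 held rank 1 with GST-Ferry and rank 2 with GST. Per kilobase of all annotated exons of the gene CCT4 held rank 1 with GST-Ferry and rank 2 with GST, CCT5 rank 2 and rank 6, and CCT3 rank 3 and rank 1.

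Pseudogene copies and overlapping genes could have taken or lent reads. Runs of 50 bases that also occur in a transcript of another gene made up 8.59% of the runs in the CCT8 transcript, 7.8% in TCP1, 6.67% in CCT6A and 2.73% in CCT5, and 0% in CCT2, CCT3, CCT4 and CCT7. The copies themselves held few counts. How reads that match a subunit and a copy alike were counted is not known, as the counting program is not given. The pseudogene CCT6P1, the most abundant of the 14 annotated ones, had 7.32, 7.56 and 8.7 CPM with GST-Ferry and 10.8, 15.5 and 11.5 CPM with GST, a mean of 3.08% of CCT6A. Its log2 fold change of -0.70 ran against that of CCT6A without passing the test (edgeR adjusted p = 0.201), and 12.2% of all tested genes were likewise lower without overlap. The CCT5 copies CCT5P1 and CCT5P2 had at most 6 counts in a library, CCT8P1 at most 15, CCT4P2 at most 13, TCP1P3 at most 8 and CCT7P1 at most 6.

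Among genes that overlap a subunit gene, ACAT2, a cytosolic acetyl-CoA acetyltransferase, shares 558 bases with the end of TCP1 on the opposite strand. It had 201, 216 and 198 CPM with GST-Ferry and 136, 112 and 126 CPM with GST (log2 fold change 0.72, edgeR adjusted p = 0.0809). The libraries kept the strand, but whether the counting used it is not stated, and reads from the shared stretch cannot be assigned with certainty. The antisense gene AC012640.4 shares 1816 bases with CCT5 and had at most 2 counts in any library, COMMD1 shares 81 bases with CCT4 and averaged 16.4 CPM with GST-Ferry and 15.7 CPM with GST, and TSACC within CCT3 had at most 25 counts. The snoRNAs SNORA20 inside TCP1 and SNORA22B and SNORA15 inside CCT6A had at most 8, 11 and 6 counts, and AF129075.1 in an intron of CCT8 at most 15. The snoRNA SNORA29 inside TCP1 had no counts, against a floor of 3 counts that corresponds to between 0.273 and 1.3 CPM.

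Among genes that work with TRiC, the ones that passed the test encode substrates. The lists of actin and tubulin and of other substrates held 13 and 15 of the 51 genes tested. Of 54 genes in 8 lists of cochaperones, substrates, relatives and regulators, 51 could be tested, 2 were enriched and 0 depleted, against 0.592% and 0.0322% of all tested genes. DESeq2 also called 0 of these genes depleted, against 140 of all tested genes, and limma-voom called 0 of all tested genes depleted. At an unadjusted p under 0.05, 2 genes, BBS12 and PFDN4, were lower, against 8.05% of all tested genes. The enriched genes were GNB2, a G protein beta subunit with WD40 repeats, and TUBG1, the gamma-tubulin that nucleates microtubules. GNB2 had 163, 221 and 179 CPM with GST-Ferry and 90.5, 72.8 and 59.2 CPM with GST, a log2 fold change of 1.33 ± 0.22 (SE, edgeR adjusted p = 0.042). TUBG1 had 134, 205 and 161 CPM with GST-Ferry and 84.5, 68 and 51.1 CPM with GST, a log2 fold change of 1.29 ± 0.24 (SE, edgeR adjusted p = 0.0427). In both genes every GST-Ferry library lay above every GST library, with GST-Ferry 2 the highest. Such separation is likely in any gene picked by this test on the same libraries. Like CCT5, both lost the call with RLE size factors, with library sizes alone, without GST-Ferry 2, without GST-Ferry 3 and without GST 2 (edgeR adjusted p from 0.0518 to 0.425). TUBG1 also lost it with limma-voom (limma-voom adjusted p = 0.0573), while GNB2 kept it (0.0496).

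Of the actin and tubulin genes, which code for the classic substrates, all 13 tested had a fold change above 0 and 1, TUBG1, was enriched. The number enriched depended on the method, with 8 by DESeq2, 7 without the filter on low counts, 0 with RLE size factors, library sizes alone or limma-voom, and 12 without GST 3 and GST-Ferry 1. The share of all tested genes called enriched also varied, with 2.84% by DESeq2, 1.29% without the filter and 11.5% without GST 3 and GST-Ferry 1. The median of the 13 actin and tubulin genes was 0.79 on the log2 scale. In 11 of the 13 every GST-Ferry library lay above every GST library, against 14.9% of all tested genes. Without GST 3 alone 9 were called, against 4.45% of all tested genes called enriched there, and 0 without GST-Ferry 2, GST-Ferry 3 or GST 2. The beta-tubulin TUBB had 1841, 2406 and 2285 CPM with GST-Ferry and 1217, 1165 and 1252 CPM with GST, and did not pass (log2 fold change 0.85 ± 0.21 SE, edgeR adjusted p = 0.0755; it was named after its values were seen). ACTG1, the most abundant of the list, had 3159 ± 367 CPM with GST-Ferry and 2250.1 ± 460.5 CPM with GST. Tubulin and actin isotypes have similar coding sequences, so the split of reads among them is uncertain. Of 15 other reported substrates, 14 had a fold change above 0 and GNB2 was enriched, with a median of 0.40. GNB1, the most abundant of these, had 461 ± 58.6 CPM with GST-Ferry and 276 ± 46.5 CPM with GST (edgeR adjusted p = 0.096).

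No cochaperone or relative of TRiC passed the test, against 0.592% of all tested genes called enriched and 0.0322% called depleted. At such shares lists this short would rarely hold a called gene. Prefoldin, which hands actin and tubulin chains to TRiC, had a median log2 fold change of 0.23 over its 6 subunits, with 4 above 0. PFDN5, its most abundant subunit, had 127 ± 21.4 CPM with GST-Ferry and 115 ± 23.7 CPM with GST. Values ran from 0.79 in PFDN2 to -0.89 in PFDN4 (edgeR adjusted p = 0.12 and 0.129), the 2 prefoldin genes with an unadjusted p under 0.05. Of the phosducin-like genes 3 of 4 were tested, with a median of 0.34 and 1 at an unadjusted p under 0.05. PDCL, which assists folding of G protein beta subunits, had 36.7 ± 4.36 CPM with GST-Ferry and 29.1 ± 8.88 CPM with GST. Of the 6 tubulin folding cofactors 4 lay above 0 (median 0.21) and 2 were higher at an unadjusted p under 0.05, a level that 11.3% of all tested genes reached, and TBCD, the most abundant, had 256 ± 35.6 CPM with GST-Ferry and 209.97 ± 48.4 CPM with GST. DESeq2 called 1 of these cofactors enriched, and 0 prefoldin or phosducin-like genes, against 2.84% of all tested genes.

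The 4 tested relatives of the subunits had fold changes below 0, and of all tested genes 47.8% had one above 0. CCT6B, a paralog of CCT6A known mainly from testis, had 3.06 ± 1.32 CPM with GST-Ferry and 3.7 ± 0.592 CPM with GST. MKKS, BBS10 and BBS12, which are chaperonin-like proteins that assist assembly of the BBSome together with TRiC, also had fold changes below 0. BBS10, the most abundant of this list, had 25.8 ± 6.54 CPM with GST-Ferry and 32.4 ± 11.7 CPM with GST. The median of the 4 tested was -0.29, with 1 of them at an unadjusted p under 0.05 and 0 called by edgeR or DESeq2, and the fifth, CCT8L2, had 1 count in all. Of all tested genes 8.05% were lower at an unadjusted p under 0.05. BBS12 was the only 1 of the 4 lower without overlap between groups, as were 12.2% of all tested genes. The mitochondrial chaperonin HSPD1 had 973 ± 189 CPM with GST-Ferry and 688 ± 29.6 CPM with GST, without overlap (log2 fold change 0.50, edgeR adjusted p = 0.219), and its lid HSPE1 had a log2 fold change of 0.32. HSF1, the main activator of heat shock genes, had 132 ± 15.2 CPM with GST-Ferry and 88.4 ± 21.9 CPM with GST (log2 fold change 0.57, edgeR adjusted p = 0.19), and HSF2 had a log2 fold change of -0.10.

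**Figure D5:**
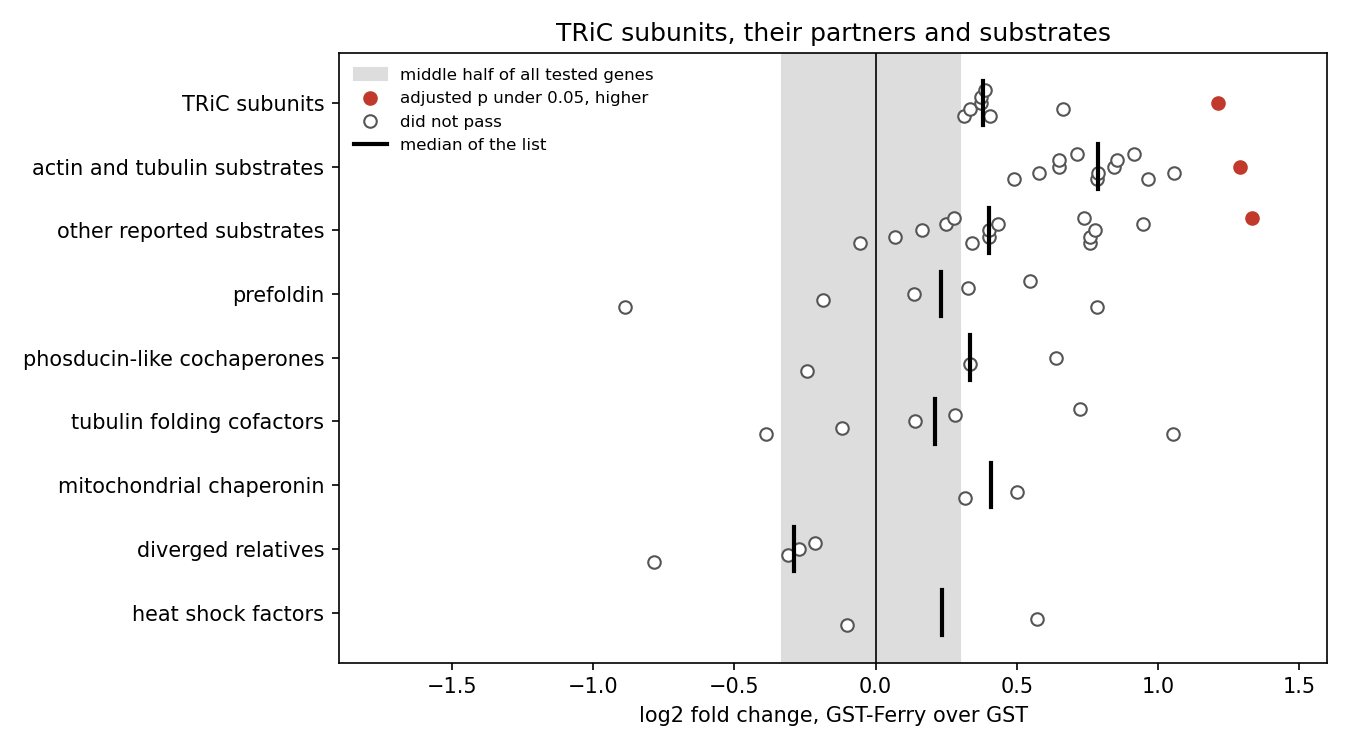
Log2 fold change of GST-Ferry over GST for every tested gene of the TRiC subunits and of 8 lists of partners, substrates, relatives and regulators (circles, red and filled where enriched at an adjusted p under 0.05), with the median of each list as a black bar. The grey band runs from the lower to the upper quartile of all tested genes; the median is 0.79 for actin and tubulin genes, 0.38 for TRiC subunits and -0.29 for the diverged relatives.

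The genes whose values followed the subunit average most closely were MRPL3, a mitochondrial ribosomal protein, PGM1, a phosphoglucomutase, GMPS, the GMP synthase, CS, the citrate synthase, and SAMM50, a protein of the outer mitochondrial membrane. Likeness was the Euclidean distance over the 6 libraries between log2 CPM relative to the GST mean and the average of the 8 subunits on that scale. Among the 5191 protein-coding genes that averaged 50 CPM or more the distance was 0.0792 for MRPL3 and 0.127 to 0.151 for the other 4. Of the subunits themselves TCP1 was nearest to their average at 0.195 and CCT5 the farthest at 1.23, where the average includes each of them. The log2 fold changes of the 5 genes lay between 0.50 (GMPS) and 0.54 (PGM1), and none passed the test (edgeR adjusted p from 0.164 to 0.21). As these genes were picked by closeness to the subunit average in the same libraries, fold changes near that average follow from the choice.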

How the data were processed

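The authors deposited 1 table of raw read counts per Ensembl gene ID for 6 libraries. The tools named were STAR 2.5.2b and bcl2fastq 2.19.1, with GRCh38.p13 as the build, per the submitters' processing notes. The counting program, annotation release and strand setting are not given in the sources used here. Columns are named control or sample with a number, per the file headers, and were read as GST and GST-Ferry, number for number, which is an assumption. Symbols, coordinates and transcripts came from GENCODE 29, which holds 58503 of the 60676 IDs. The transcript used for a subunit was the principal one with the longest coding sequence.

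Genes were filtered with filterByExpr (minimum count 10, minimum total 15), which kept 99.5% to 99.7% of counts. They were scaled with TMM (factors 0.923 to 1.1) and tested with edgeR 4.0.16 in R 4.3.3 by the quasi-likelihood test, two-sided, with no covariate. SE is the absolute log2 fold change divided by the square root of F. The procedure was tested on simulated data. Alternatives used DESeq2 1.42.0 and limma-voom 3.58.1, and figures matplotlib 3.10.9. Sequences were aligned with Biopython 1.88.

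The members, lists and alternatives were chosen with earlier results of these data known. Named are all subunits, of each list the called genes and the most abundant one, the pseudogenes and genes overlapping a subunit gene that hold most counts, and the 5 genes most like the subunits. Genes named beyond this, such as the remaining relatives and the extremes of a list, were picked once values were known. Nothing in the labels says whether replicates are separate cultures, and the p-values therefore measure only the spread between these libraries, and that spread may be technical. No pair of libraries of 1 bait looked like 1 library deposited again (chi-square of 4.15 to 59.7 per degree of freedom), which does not show that they are independent samples. Floors and counting errors cover counting error only.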

Additional observations from a re-analysis of the deposited data

How the results depend on the processing

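No fold change of a subunit changed sign under any alternative run. The CCT5 call was lost with RLE size factors (log2 fold change 1.20), library sizes alone (1.13) and limma-voom (1.20), and over single left-out libraries its value ran from 0.99 to 1.35. It was kept, with an adjusted p under 0.05, without the filter, with DESeq2, with the bait subunit genes or the small and mitochondrially encoded RNAs removed, at equal depth, and without GST 1, GST 3 or GST-Ferry 1. Over single left-out libraries CCT4 ran from 0.21 to 0.60 and was called without GST 3. Without GST 3 and GST-Ferry 1 together the log2 fold changes were 0.57 (TCP1), 0.55 (CCT2), 0.68 (CCT4), 0.59 (CCT6A), 0.72 (CCT7) and 0.58 (CCT8), all called; CCT7 was also called by DESeq2 (0.64). The cause of these changes was not tested.

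The number of subunits called was 0 with RLE size factors, library sizes alone, limma-voom and a threshold of 0.01, 2 with DESeq2, 7 without GST 3 and GST-Ferry 1, and 0 to 2 over single left-out libraries. Over all genes the edgeR counts of enriched and depleted genes were 92 and 5. They were 11 and 0 with RLE size factors, 7 and 0 with library sizes alone, 421 and 323 without the filter, 442 and 140 with DESeq2, 14 and 0 with limma-voom, and 0 and 0 at a threshold of 0.01. The enriched count was 1754 and the depleted count 992 without GST 3 and GST-Ferry 1. The depleted count was 9 with small and mitochondrially encoded RNAs removed and 19 at equal depth. Over single left-out libraries the enriched count ran from 0 (without GST-Ferry 2, where 910 were higher at an unadjusted p under 0.05, and 794 lower) to 701 (without GST 3), and the depleted count from 0 to 558.

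Partner genes called enriched numbered 2. Their number was 0 with RLE size factors, library sizes alone and a threshold of 0.01, 10 without the filter, 13 with DESeq2, 1 with limma-voom, 4 with small and mitochondrially encoded RNAs removed and 4 at equal depth. It was 28 without GST 3 and GST-Ferry 1 and 0 to 16 over single left-out libraries. Partner genes called depleted numbered 1 without the filter.

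The difference in the share of CCT7 was 0.906 percentage points and changed sign to -0.0384 without GST 3 and GST-Ferry 1, and over single left-out libraries it ran from -0.0141 to 1.66. Deviations from the group mean had correlations of 0.244, 0.0796 and -0.148 between same-numbered libraries, and of -0.272 to 0.201 between differently numbered ones. These values do not settle whether the numbers mark pairs. The labels name no pairs, so the numbers were not taken as such. With the replicate number as a block the fit called 167 genes enriched and 28 depleted, and CCT5 kept its call (log2 fold change 1.19, adjusted p = 0.0229). Paired shares of CCT5 gave an adjusted p of 0.333 by the exact sign-flip test. With so few pairs that test could not pass whatever the values, so it decides nothing.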
